A study of Homo sapiens with 9 samples.

Results

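The 10 genes described here encode factors that transcribe replication-dependent histone genes and process or degrade their mRNAs: NPAT, CASP8AP2, SLBP, ERI1, LSM10, LSM11, CPSF2, CPSF3, SYMPK and CSTF2. They were chosen by name from known function, with earlier results of these data known. Each matched 1 of the 56541 genes of the deposited table. RNA was measured in MOLM-13, a human acute myeloid leukaemia cell line labelled as from peripheral blood. There were 3 groups, each with 3 libraries and all labelled batch 1. RNA-seq was made of shCONTROL cells, which carried the control short hairpin RNA, and of shBCLAF1 cells, whose hairpin was aimed at BCLAF1, a protein of the nucleus that binds RNA. For the RIP, BCLAF1 was precipitated from shCONTROL cells and the RNA recovered with it was sequenced. All cells, controls included, had received doxycycline at 200 ng/µL for 4 days, and 2000000 cells were collected for RNA-seq against 15000000 for the RIP. The labels name a single line, a single BCLAF1 hairpin and no mock precipitation, and do not say that replicates were separate cultures. The p-values therefore measure only the spread between these libraries, which may be technical.

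Replication-dependent histone mRNAs are made mainly in S phase, when new DNA must be packaged, and unlike other mRNAs they end in a stem-loop and carry no poly(A) tail. NPAT gathers with CASP8AP2 (also called FLASH) at the histone genes in histone locus bodies, where transcription and processing are coupled. SLBP binds the stem-loop, the U7 snRNP with its proteins LSM10 and LSM11 pairs with a downstream element, and a cleavage complex with SYMPK, CPSF2, CSTF2 and the nuclease CPSF3 cuts the transcript. ERI1 trims the 3′ end and takes part in the decay of histone mRNA when replication stops. SYMPK, CPSF2, CPSF3 and CSTF2 also serve the cleavage of ordinary polyadenylated mRNAs. Because ribosomal RNA was removed and no poly(A) selection is named in the labels, histone mRNAs and the mRNAs of their processing factors were measured in the same libraries.

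Total estimated counts per library ran from 25819144 to 36635268, and no member had fewer than 103 counts in any library, so all 10 passed the filter on low counts in both comparisons. BCLAF1 measured 325, 328 and 312 scaled CPM (CPM with libraries scaled by TMM, a level relative to the depth of each library) in shCONTROL and 115, 125 and 99.9 in shBCLAF1, a fold change of -1.50 on the log2 scale (standard error 0.08, adjusted p 2.06e-04). Here and below, adjusted p-values are those of edgeR's quasi-likelihood F test, adjusted by Benjamini and Hochberg's method over all genes tested, the threshold was 0.05, and the standard error (SE) is that which goes with the F statistic. The myeloid markers CD33 and SPI1 were present in every library, at 88.3 to 124 and 208 to 343 scaled CPM. Of 15 markers of T, B, erythroid, fibroblast and epithelial cells, 11 were at 0 in all 9 libraries, among them CD3E, MS4A1, HBB, COL1A1 and EPCAM. CD3D was detected at 7.71 to 11.9 scaled CPM, CD79A had up to 25 counts in the RNA-seq groups, and KRT8 had 52 and 55 counts in shBCLAF1 replicates 2 and 3. The summed level of 7 myeloid markers was 1486 to 1591 scaled CPM in shCONTROL, while shBCLAF1 libraries had 3296 to 3699 and RIP libraries 1082 to 1191. Both differences in this sum came mainly from LYZ, lysozyme, so the sum does not describe the 7 markers as a set. LYZ was at 671 to 785 scaled CPM in shCONTROL and 2432 to 2817 in shBCLAF1. Its RIP level was 6.42% of the control, with 34.3 to 60.3 scaled CPM. Of the 7, 3 were higher and 1 was lower after knock-down, against 1 higher and 3 lower in the RIP. Their median log2 fold change was 0.34 after knock-down and 0.10 in the RIP. The part of these markers in the results was not tested.

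After BCLAF1 knock-down, 7 of the 10 factors fell and 1 rose, so that 8 of 10 passed the test, against 32.3% of all genes tested. SLBP fell most, to 64.2% of its control level, and the smaller falls of CPSF3, CSTF2, CPSF2, CASP8AP2, ERI1 and SYMPK left 79.0% to 86.2%. LSM10 rose to 124%, and NPAT and LSM11 did not pass the test. Among all 16961 genes tested, 16.9% were lower and 15.5% were higher at the same threshold, and the median log2 fold change was 0.02 over all genes and -0.23 over the members. The groups did not overlap for 9 of the 10 members, against 49.3% of all genes tested. No member reached a log2 fold change of 1 in size, which 4.02% of all genes did while passing the test.

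**Figure D1:**
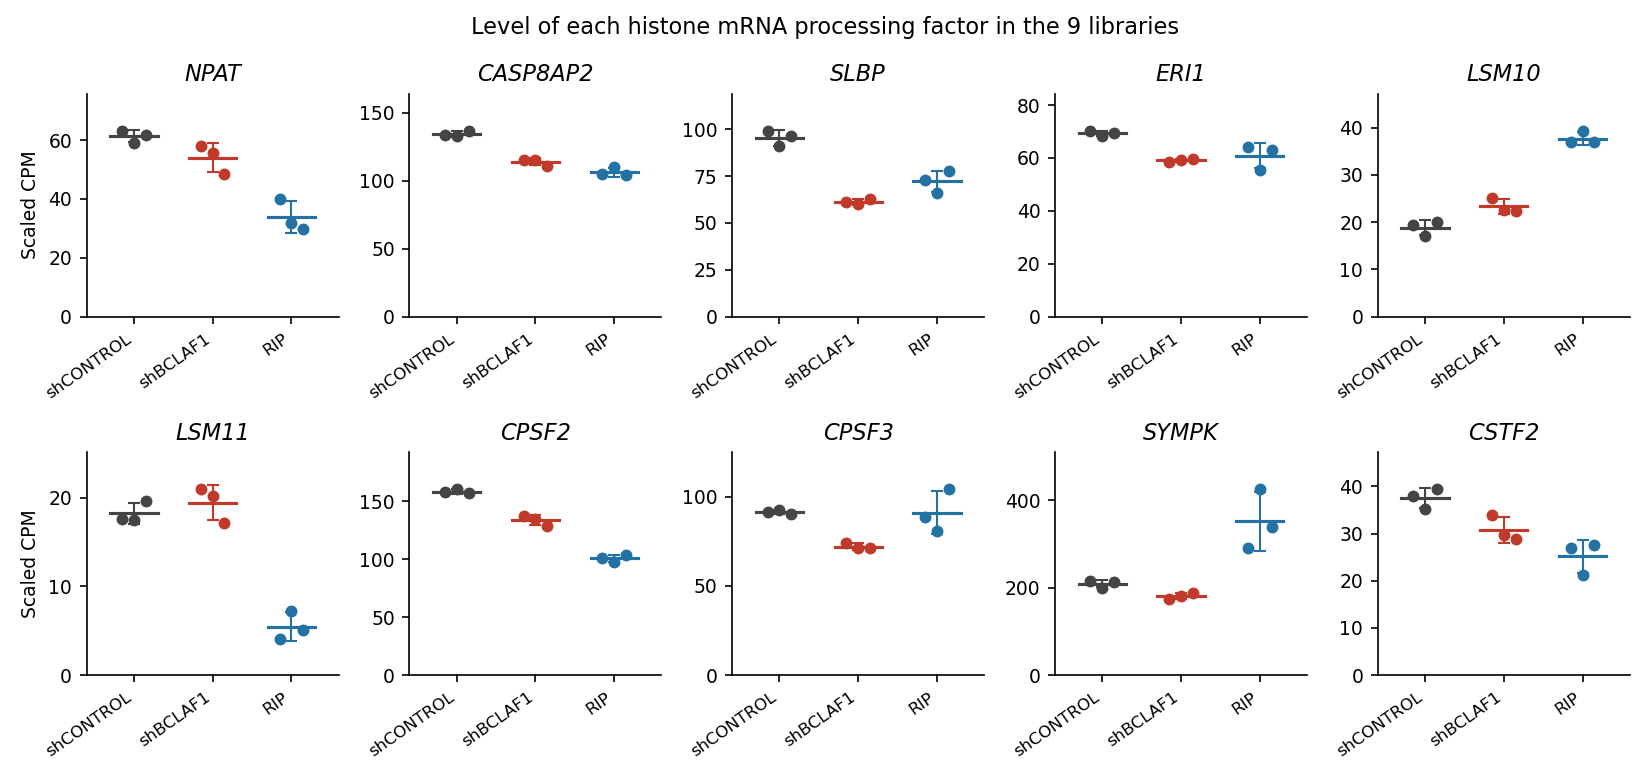
Scaled CPM (y axis from 0) of each factor in the 3 libraries of shCONTROL, shBCLAF1 and RIP; points are libraries, horizontal lines group means and whiskers SD. SLBP drops from 90.9 or more in shCONTROL to 63.0 or less in shBCLAF1, and LSM11 drops to 7.25 or less in the RIP, while LSM10 and SYMPK are highest there.

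Promoter sequences are shown for NPAT and CASP8AP2, which act together at the histone genes, for SLBP, which fell most, and for LSM10, the single member that was higher in both comparisons. Each is the 250 bases before the start annotated by RefSeq on GRCh38.p14, on the gene's strand from 5′ to 3′: chr11:108222639-108222888 (minus strand), chr6:89829630-89829879 (plus), chr4:1712320-1712569 (minus) and chr1:36397909-36398158 (minus). Capitals mark matches, on either strand, to 4 motifs: the E2F-type octamers TTTCCCGC, TTTCGCGC, TTTGCCGC and TTTGGCGC, the CCAAT box CCAAT, the GC box GGGCGG and the ETS-type CCGGAAG. No marked matches overlap.
NPAT: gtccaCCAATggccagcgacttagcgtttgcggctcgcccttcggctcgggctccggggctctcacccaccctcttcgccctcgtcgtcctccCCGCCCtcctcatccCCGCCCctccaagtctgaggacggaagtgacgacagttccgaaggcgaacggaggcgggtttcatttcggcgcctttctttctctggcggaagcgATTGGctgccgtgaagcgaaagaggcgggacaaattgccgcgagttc
CASP8AP2: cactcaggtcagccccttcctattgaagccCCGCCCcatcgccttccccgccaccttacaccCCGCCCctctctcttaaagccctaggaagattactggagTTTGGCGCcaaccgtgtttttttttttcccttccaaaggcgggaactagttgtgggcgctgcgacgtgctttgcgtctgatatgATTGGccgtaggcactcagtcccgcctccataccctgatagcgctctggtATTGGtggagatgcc
SLBP: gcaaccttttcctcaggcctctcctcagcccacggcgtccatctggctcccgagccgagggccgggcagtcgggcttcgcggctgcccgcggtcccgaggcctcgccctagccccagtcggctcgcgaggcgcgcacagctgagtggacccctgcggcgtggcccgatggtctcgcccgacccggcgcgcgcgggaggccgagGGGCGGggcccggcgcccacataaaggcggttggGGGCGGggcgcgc
LSM10: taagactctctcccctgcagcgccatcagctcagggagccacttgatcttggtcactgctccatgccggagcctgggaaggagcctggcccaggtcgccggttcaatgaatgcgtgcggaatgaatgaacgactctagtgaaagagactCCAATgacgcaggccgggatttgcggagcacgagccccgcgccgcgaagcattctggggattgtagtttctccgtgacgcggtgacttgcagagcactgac

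The NPAT sequence held 2 CCAAT boxes and 2 GC boxes. CASP8AP2 held 2 of each and 1 E2F-type octamer, TTTGGCGC, which began 149 bases before the start. SLBP held 2 GC boxes, both in the last 47 bases, and its whole sequence of 250 bases was 77.2% G and C. LSM10 held 1 CCAAT box and none of the other 3 motifs.

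The promoter sequences used here covered 9 of the 10 members, all but ERI1. An E2F-type octamer was found in 2 of these 9, CASP8AP2 and CPSF3, against 2.78% of 34796 promoters of the same length. The CPSF3 window overlaps another gene, ITGB1BP1, and its octamer began 218 bases before the start. CCAAT was found in 4 (NPAT, CASP8AP2, LSM10 and CPSF2) against 32.0%, the GC box in 6 against 42.6%, and the ETS-type motif in 2 (CPSF3 and CSTF2) against 8.50%. These matches describe letters in a window and not binding.

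NPAT (ENSG00000149308) and CASP8AP2 (ENSG00000118412), the scaffold proteins of the histone locus body, lay on either side of the threshold. NPAT measured 63.2, 59.1 and 61.8 scaled CPM in shCONTROL and 58.0, 55.5 and 48.6 in shBCLAF1. All shBCLAF1 libraries lay under all shCONTROL libraries, but replicate 3 stood well below the other two, and the fold change of -0.18 on the log2 scale (standard error 0.07) had an adjusted p of 0.121 in edgeR. CASP8AP2 measured 134, 133 and 137 scaled CPM in shCONTROL and 115, 115 and 111 in shBCLAF1. Its libraries were tightly grouped, and it fell by 0.24 on the log2 scale (SE 0.04, adjusted p 0.00411), a call kept in all 12 alternatives.

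SLBP (ENSG00000163950), the stem-loop binding protein, measured 99.2, 90.9 and 96.6 scaled CPM in shCONTROL and 61.1, 59.9 and 63.0 in shBCLAF1. The lowest control library lay far above the highest knock-down library. Its fold change of -0.64 on the log2 scale (standard error 0.05, adjusted p 3.77e-04) was lower than that of all but 8.56% of the genes tested. Across 12 alternatives it ran from -0.66 to -0.58, and all of them kept the call. The difference between log2 SLBP and the mean log2 level of the other 9 members, which compares libraries and not genes, was 0.59, 0.52 and 0.52 in shCONTROL and -0.0084, 0.02 and 0.15 in shBCLAF1. Every knock-down library lay below every control library in this difference. It restates the fall of SLBP in the same libraries and is no separate support. The difference was not formed for the other members. ERI1 (ENSG00000104626), the exonuclease, measured 70.3, 68.2 and 69.4 scaled CPM in shCONTROL and 58.6, 59.1 and 59.7 in shBCLAF1. The groups stood apart, with a fold change of -0.22 on the log2 scale (standard error 0.04, adjusted p 0.00480). This call was lost only in a single fit of all 9 libraries (adjusted p 0.0649), out of 12 alternatives.

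Neither of the U7-specific proteins LSM10 and LSM11 was called lower. LSM10 (ENSG00000181817) measured 19.5, 17.0 and 20.1 scaled CPM in shCONTROL and 25.2, 22.5 and 22.3 in shBCLAF1. It was higher in every knock-down library, with a fold change of 0.31 on the log2 scale (standard error 0.09, adjusted p 0.0440). Its call rested on the full set of libraries. Leaving out any single library, shCONTROL replicate 1, 2 or 3 or shBCLAF1 replicate 1, 2 or 3, gave log2 fold changes of 0.25 to 0.36 with adjusted p-values of 0.0582 to 0.113. LSM11 (ENSG00000155858) measured 17.6, 17.6 and 19.7 scaled CPM in shCONTROL and 21.0, 20.2 and 17.2 in shBCLAF1. The groups overlapped, and the fold change of 0.09 on the log2 scale (standard error 0.10, adjusted p 0.539) was smaller than its error.

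Among the cleavage factors, CPSF3 (ENSG00000119203), the nuclease that cuts the RNA, measured 91.4, 92.3 and 90.1 scaled CPM in shCONTROL and 74.1, 71.2 and 71.0 in shBCLAF1. Both groups were tight, and it fell by 0.34 on the log2 scale (SE 0.04, adjusted p 0.00134). CPSF2 (ENSG00000165934), its catalytically inactive partner, measured 158, 160 and 157 scaled CPM in shCONTROL and 137, 135 and 129 in shBCLAF1. It fell by 0.24 on the log2 scale (SE 0.04, adjusted p 0.00498), and both CPSF calls held in all 12 alternatives. SYMPK (ENSG00000125755), the scaffold of the cleavage complex, measured 215, 200 and 214 scaled CPM in shCONTROL and 175, 180 and 187 in shBCLAF1, a fold change of -0.21 on the log2 scale (standard error 0.04, adjusted p 0.0147). CSTF2 (ENSG00000101811), an RNA-binding subunit of the cleavage stimulation factor, measured 38.0, 35.2 and 39.4 scaled CPM in shCONTROL and 34.0, 29.6 and 28.8 in shBCLAF1, a fold change of -0.28 on the log2 scale (standard error 0.08, adjusted p 0.0454).

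The calls of SYMPK and CSTF2 depended on single libraries. For SYMPK the adjusted p was 0.0791 and 0.0835 when shCONTROL replicate 1 or 3 was left out, and above the threshold with total counts in place of TMM (0.0522). CSTF2 lost its call without shCONTROL replicate 1 or 3 (0.120 and 0.131), without shBCLAF1 replicate 2 or 3 (0.134 and 0.106) and with total counts (0.0590). The falls of CASP8AP2, CPSF2, ERI1 and SYMPK lay between -0.24 and -0.21, within 1 SE of each other, so they are not ranked. CSTF2 has a close paralogue, CSTF2T, with which reads may be shared. CSTF2T itself had a fold change of 0.02 on the log2 scale (standard error 0.07, adjusted p 0.883).

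**Figure D2:**
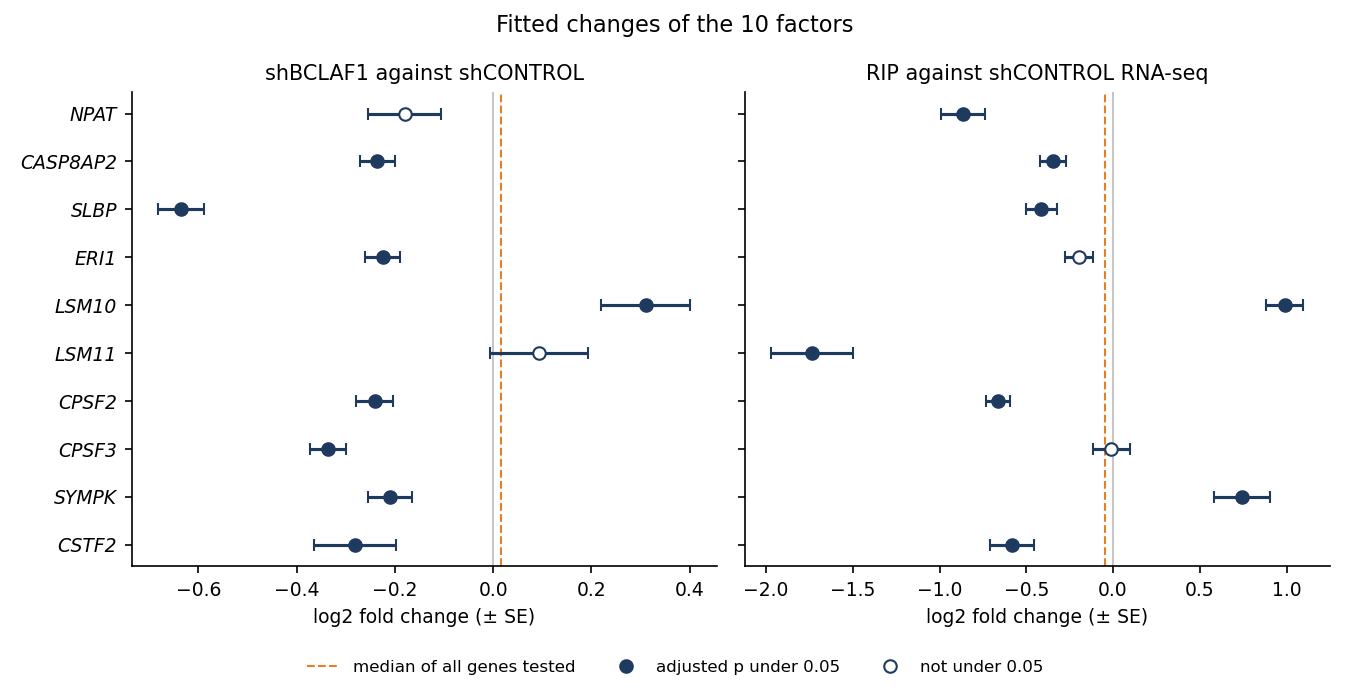
Log2 fold change (x axis, whiskers ± SE) of the 10 factors in shBCLAF1 against shCONTROL (left) and in the RIP against shCONTROL RNA-seq (right); filled points had an adjusted p under 0.05, and the dashed line is the median of all genes tested. SLBP at -0.64 stands apart on the left, and LSM11 at -1.73 and LSM10 at 0.99 form the 2 ends on the right.

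The RIP comparison asks which mRNAs were recovered with BCLAF1 beyond or below their share in total RNA. Of the 10 factors, 8 passed the test, against 49.2% of all genes. LSM10 and SYMPK were higher in the RIP and 6 were lower, LSM11, NPAT, CPSF2, CSTF2, SLBP and CASP8AP2. ERI1 and CPSF3 did not pass. Of all 16727 genes tested, 24.6% were higher and 24.7% lower, so a call in this comparison is common. The median log2 fold change was -0.38 over the members and -0.05 over all genes, and the groups did not overlap for 9 of 10 members against 67.0% of all genes. Without a mock precipitation, recovery through BCLAF1 and background of the procedure cannot be told apart. BCLAF1 mRNA itself measured 336% of its control level in the RIP.

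The most opposed values belonged to the partners LSM10 and LSM11, whose proteins share the U7 ring. LSM10 measured 36.9, 39.4 and 36.9 scaled CPM in the RIP, so that every RIP library lay above every shCONTROL and shBCLAF1 library. It was 1.99-fold higher than in shCONTROL, with a fold change of 0.99 on the log2 scale (standard error 0.11, adjusted p 8.37e-04). LSM11 measured 4.05, 7.25 and 5.10 scaled CPM in the RIP, under every RNA-seq library. Its level was 29.9% of the control, with a fold change of -1.73 on the log2 scale (standard error 0.24, adjusted p 0.00188) and the lowest counts of all members, 103, 205 and 147. Both calls held in all 13 alternatives, over which LSM10 ran from 0.84 to 1.04 and LSM11 from -2.00 to -1.56.

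NPAT measured 40.1, 31.8 and 29.7 scaled CPM in the RIP. It was 55.2% of the control, with a fold change of -0.86 on the log2 scale (standard error 0.13, adjusted p 0.00254). CASP8AP2 measured 105, 110 and 104, a smaller decrease of 0.35 on the log2 scale (SE 0.07, adjusted p 0.00949). The CASP8AP2 call was lost without shCONTROL replicate 3 (adjusted p 0.0532).

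SLBP measured 72.8, 66.0 and 77.5 scaled CPM in the RIP, between the shBCLAF1 and the shCONTROL libraries. Its fold change was -0.41 on the log2 scale (standard error 0.09, adjusted p 0.00988). Against the average of the shCONTROL and shBCLAF1 groups it became -0.09 (adjusted p 0.281). That average includes the fall of SLBP after knock-down, and the RIP was made from shCONTROL cells. ERI1 measured 64.3, 55.4 and 63.0 scaled CPM, a fold change of -0.19 on the log2 scale (standard error 0.08, adjusted p 0.0940).

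Within the cleavage complex the 4 subunits spread widely in the RIP. SYMPK measured 291, 425 and 339 scaled CPM, above every RNA-seq library but with replicate 2 far over replicate 1. Its fold change was 0.74 on the log2 scale (standard error 0.16, adjusted p 0.00992), with values between 0.58 and 0.87 when single libraries were omitted. CPSF2 measured 101, 97.2 and 104 scaled CPM, a fold change of -0.66 on the log2 scale (standard error 0.07, adjusted p 7.78e-04). CSTF2 measured 26.9, 21.2 and 27.6, a fold change of -0.58 on the log2 scale (standard error 0.13, adjusted p 0.0100). CPSF3 measured 88.6, 80.6 and 104, on both sides of the control level, with a fold change of -0.0096 on the log2 scale (standard error 0.11, adjusted p 0.946).

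The 2 comparisons share the shCONTROL libraries, so their values are only set side by side. CASP8AP2, SLBP, CPSF2 and CSTF2 were called lower in both. LSM10 was called higher in both. The knock-down call of CSTF2 held in 5 of 12 alternatives and that of LSM10 in 3 of 12. The share of all genes called in both comparisons was not counted, so these overlaps are not read as a trait of the members. SYMPK was lower after knock-down and higher in the RIP. NPAT and LSM11 passed in the RIP and not after knock-down, and CPSF3 and ERI1 the other way round. Whether the effects differed between the comparisons was not tested.

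The gene NPAT lies at chr11:108157215-108222638 of GRCh38, back to back with ATM, a kinase of the DNA damage response. The annotated starts of both genes are separated by 428 bases. ATM ranged over 234 to 276 scaled CPM in shCONTROL, while shBCLAF1 libraries had 260 to 267 and RIP libraries 230 to 271, with log2 fold changes of 0.03 (SE 0.07, adjusted p 0.752) and -0.03 (SE 0.12, adjusted p 0.865). The log2 ratio of NPAT to ATM counts was -2.09, -1.98 and -2.16 in shCONTROL. It was -2.21, -2.23 and -2.46 in shBCLAF1, and the RIP libraries gave -2.76, -3.08 and -2.95. Neither group overlapped with shCONTROL, and each exact two-sided permutation test gave a p of 0.1, the smallest that 3 against 3 allows. The ratio is of counts not set per length, so it does not compare the 2 genes' abundance.

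The histone mRNAs on which these factors act were measured in the same libraries. Counts for this and the later lists are to be read beside the shares of all genes tested. These were 16.9% lower and 15.5% higher after knock-down, and 24.7% lower and 24.6% higher in the RIP. Of 59 replication-dependent histone genes, 52 were tested, and after knock-down 43 were lower and 0 higher in edgeR (median log2 fold change -0.60). H2AC6 fell by 0.66 (SE 0.04, adjusted p 2.00e-04) and H3C4 by 0.76 on the log2 scale (SE 0.04, adjusted p 2.02e-04). Histone genes are near-identical copies in part, so single genes are uncertain, and the sum was therefore also formed. The 59 genes together took 12965, 12683 and 13292 scaled CPM in shCONTROL and 9205, 8526 and 8788 in shBCLAF1, or 65.7% to 70.9% of the control mean.

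The histone sum per unit of SLBP was 131, 140 and 138 in shCONTROL and 151, 142 and 139 in shBCLAF1. The 2 groups overlapped only narrowly, the highest shCONTROL value being 139.6 and the lowest shBCLAF1 value 139.5. The means were 136 in shCONTROL and 144 in shBCLAF1, and the difference was not tested. In the RIP the histone sum was 2702, 3177 and 4729 scaled CPM, or 20.8% to 36.4% of the control mean, and the sum per unit of SLBP was 37.1, 48.2 and 61.0. There 49 of the 52 histone genes were lower and 0 higher (median log2 fold change -2.10), with H3C4 at -2.68 and H4C8 at -2.00.

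**Figure D3:**
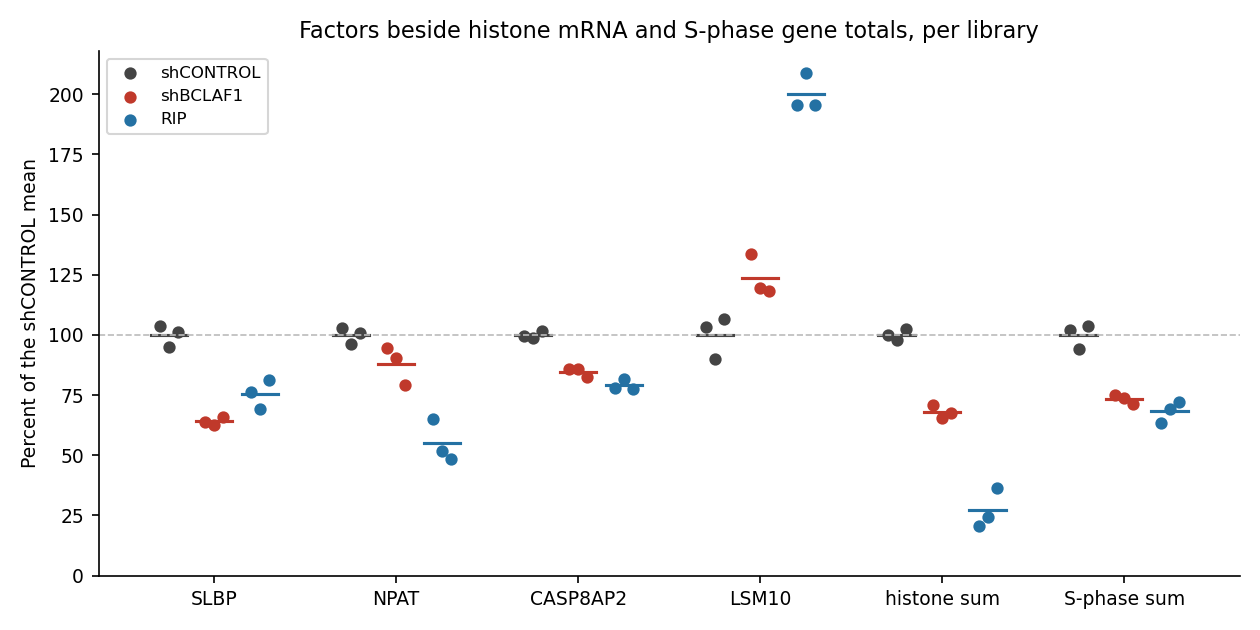
Level in each library as a percent of the shCONTROL mean (y axis from 0, dashed line at 100) for SLBP, NPAT, CASP8AP2 and LSM10, the sum of 59 replication-dependent histone genes and the sum of 17 S-phase genes; points are libraries and lines are group means. After knock-down the histone sum lies at 65.7% to 70.9% and the S-phase sum at 71.5% to 75.2%, while in the RIP the histone sum drops to 20.8% to 36.4%.

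Of 17 genes of S phase, 11 were lower and 0 higher after knock-down (median log2 fold change -0.36). PCNA, the sliding clamp of DNA polymerase, fell by 0.97 (SE 0.05, adjusted p 2.00e-04), and MCM6, of the replicative helicase, by 0.82 on the log2 scale (SE 0.04, adjusted p 1.85e-04). Among the 17, RRM1 varied widely within groups, with 30, 471 and 3768 counts in shCONTROL and 36, 3475 and 42 in shBCLAF1. The summed level of the 17 genes, RRM1 included, was 3692, 3400 and 3750 scaled CPM in shCONTROL and 2717, 2665 and 2583 in shBCLAF1. In bulk RNA, fewer cells in S phase and less of these mRNAs per cell cannot be told apart, and the part of S phase in the members' changes was not tested. In the RIP 10 of the 17 were lower and 0 higher (median -0.72), among them FEN1 at -1.79 and TYMS at -1.31.

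**Figure D4:**
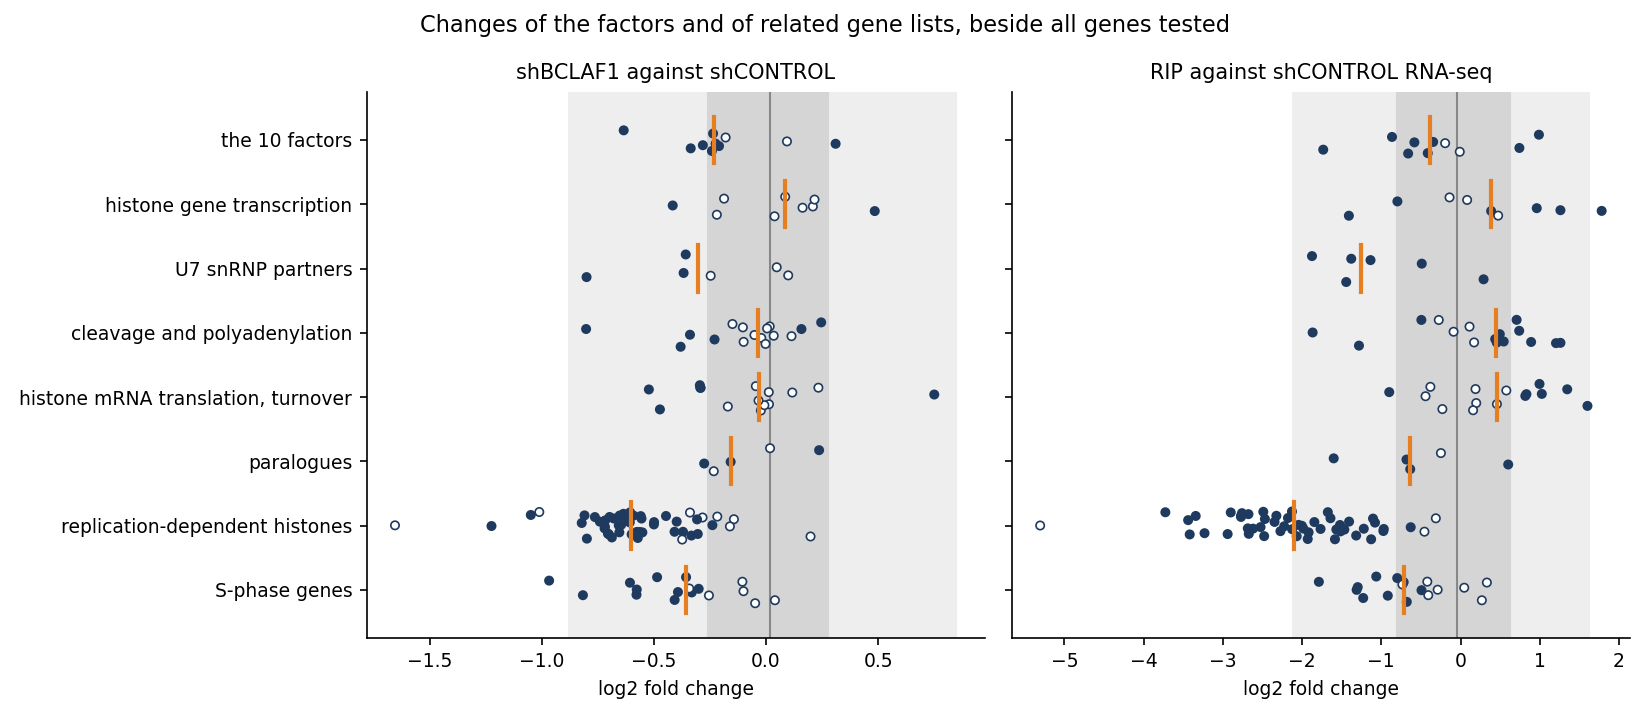
Log2 fold change (x axis) of the factors and of related gene lists in both comparisons; each point is a gene, filled where the adjusted p was under 0.05, orange bars are list medians, and the shaded bands hold the middle 50% (dark) and the range from the 5th to the 95th percentile (light) of all genes tested. The histone genes lie to the left in both panels, with medians of -0.60 and -2.10.

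Of 9 other regulators of histone gene transcription, 7 did not pass the test after knock-down, 1 was higher and 1 lower (median log2 fold change 0.09). CCNE2, a cyclin that activates CDK2 and through it NPAT, rose by 0.49 (SE 0.09, adjusted p 0.00844). POU2F1, a transcription factor of the H2B genes, had -0.42 (adjusted p 0.0466) but lost its call in 5 of the 6 fits without 1 library, all but the fit without shBCLAF1 replicate 1 (adjusted p 0.0568 to 0.128). In the RIP 4 were higher and 2 lower (median 0.39). GON4L, at 1.78, and CCNE1, at 0.96, were higher there, and CCNE2, at -1.41, and CDK2, at -0.80, were lower.

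Of the U7 snRNP partners, 6 of 7 listed genes were matched and tested. These were the shared Sm proteins and ZNF473, a zinc finger protein that binds LSM11. U7 RNA itself was not analysed here. After knock-down 3 were lower and 0 higher (median log2 fold change -0.30), with SNRPE at -0.80 (SE 0.07, adjusted p 5.51e-04) and SNRPB at -0.37 (SE 0.04, adjusted p 0.00130). In the RIP 5 of the 6 were lower (median -1.26), of which SNRPF at -1.87 and SNRPB at -1.14 had the smallest adjusted p. ZNF473 was higher there, at 0.29 (adjusted p 0.0379), but lost its call in 5 of the 6 fits without 1 library, all but the fit without RIP replicate 1 (adjusted p 0.0600 to 0.123), and with total counts in place of TMM (0.141).

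Of 16 other genes of the general cleavage and polyadenylation machinery, 4 were lower and 2 higher after knock-down. Among all genes tested, 32.3% were called in either direction. The median log2 fold change of the 16 was -0.04, against -0.23 for the 10 members. CSTF3, the subunit that holds CSTF2 in its complex, fell by 0.80 (SE 0.06, adjusted p 3.27e-04), from 81.4 to 85.7 scaled CPM in shCONTROL to 44.5 to 49.5 in shBCLAF1. NUDT21, of cleavage factor I, fell by 0.38 (SE 0.05, adjusted p 0.00234). RBBP6 rose by 0.25 and SSU72, a phosphatase, by 0.16, and SSU72 lost its call without shCONTROL replicate 3 or shBCLAF1 replicate 2 (adjusted p 0.0539 and 0.0548).

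In the RIP 9 of these 16 genes were higher and 3 lower (median 0.45), where 49.2% of all genes were called in either direction. CPSF6, at 1.26, and PCF11, at 0.89, were the higher genes with the smallest adjusted p. NUDT21, which works in 1 complex with CPSF6, was lower at -1.87, and CLP1, a partner of PCF11, at -1.28.

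Of 15 genes that serve the translation and turnover of histone mRNA, 5 were lower and 1 higher after knock-down (median log2 fold change -0.03). The share of all genes called in either direction was 32.3%. MIF4GD, a binding partner of SLBP in translation, rose by 0.75 (SE 0.11, adjusted p 0.00408), from 10.6 to 14.2 scaled CPM in shCONTROL to 20.2 to 21.3 in shBCLAF1. TUT4, a terminal uridylyltransferase, fell by 0.52 (SE 0.06, adjusted p 0.00171) and NCBP1, of the cap-binding complex, by 0.30 (SE 0.04, adjusted p 0.00259). In the RIP 6 were higher and 1 lower (median 0.46), with TUT7 at 1.35, LSM4 at 1.03 and the decapping enzyme DCP2 at -0.90.

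Of 5 paralogues of the members, 2 were lower and 1 higher after knock-down. ERI3 had -0.28, INTS11 -0.16 and ERI2 0.24 on the log2 scale. ERI3 and INTS11 each lost their call in 5 of the 6 fits without 1 library (adjusted p 0.0507 to 0.117). ERI3 kept it without shCONTROL replicate 2 and INTS11 without shBCLAF1 replicate 1. ERI2 lost it without shCONTROL replicate 3 or shBCLAF1 replicate 1 or 2 (0.0642 to 0.0761). In the RIP INTS11, the nuclease of the Integrator complex, was higher at 0.60, and ERI3 at -1.60 and CSTF2T at -0.64 were among the 3 lower.

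The genes whose log2 level over the 9 libraries was most like that of each member were found among 12470 others. They were PSMA3 and HSPA4L for SLBP (Pearson's r 0.992 and 0.990), LMBRD2 and PIGW for NPAT (0.993 and 0.992), and NBL1 and PRKDC for CASP8AP2 (0.997 and 0.991). For ERI1 they were SNHG26 and CD48 (0.970 and 0.969). TMED3 and TUBA1C were nearest to LSM11 (both 0.996) and CEP57L1P1 and PRICKLE1 to LSM10 (0.990 and 0.988). For the cleavage factors they were EMP3 and SELENOF for CPSF2 (0.999 and 0.999), PTGES3 and CBX3 for CPSF3 (0.984 and 0.980), SSRP1 and RAB11FIP3 for SYMPK (0.994 and 0.993), and CRADD and CFAP20 for CSTF2 (0.989 and 0.984). Between members the highest value was 0.935, for NPAT and CPSF2. These coefficients describe 9 libraries that fall into 3 groups, and no test was made of them.

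The RIP values were also set beside gene length on the genome. Over the 82.9% of tested genes with a RefSeq span, the median RIP log2 fold change was -0.29 in the shortest quartile and 0.28 in the longest. LSM10, with 4473 bases, was the only member in the shortest quartile and was higher in the RIP. In quartile 2 lay LSM11, SLBP and CSTF2, all 3 lower in the RIP. Quartile 3 held SYMPK, which was higher, CASP8AP2 and CPSF2, which were lower, and CPSF3, which did not pass. The longest quartile held NPAT, with 65424 bases, which was lower, and ERI1, which did not pass. The part of length in the members' RIP values was not tested.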

How the data were processed

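The values are an estimated count for each gene and library, deposited by the authors in a table without normalization. The tools STAR 2.7.11b and StringTie 2.2.3 and the build hg38 are listed, with no role, in the submitters' processing notes. The annotation, strand setting and counting step are not given in the sources used here. Values were whole numbers and were rounded no further. Few genes had a value of 1 (6 to 17 per library, against 103 to 197 with 2). An entry that names no gene (2.18% to 3.75% of counts in 8 libraries) was left out. All sample columns were used.

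Each comparison was fitted on its own 6 libraries with edgeR 4.0.16 in R 4.3.3 (default filter, TMM, prior count of 2, group as the only term). Scaled CPM used TMM over all 9 libraries, so ratios can differ slightly from fitted values. No exon lengths were used, so levels of different genes are not compared. Tested on simulated data, the knock-down fit recovered 42% of genes changed by 1 on the log2 scale and 100% of those changed by 2 among 16846 genes, and the RIP fit 13% and 92% among 16741. The simulations gave all genes the common dispersion, so these shares do not give the share recovered for genes with the members' spread. Between replicates, chi-square per degree of freedom was at least 16.5, so no library was a duplicate. Alternatives were DESeq2 1.42.0, other scalings, no filter, all 9 libraries in 1 fit, the replicate number as a block, a minimum fold and leaving out each library.

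The members and lists were chosen with earlier results of these data known. All members were named, with ATM, BCLAF1, up to 2 genes per list, comparison and direction with the smallest adjusted p, and the 2 genes most correlated with each member (mean of at least 50 counts). CSTF2T under knock-down and the marker genes were named outside this rule. The values of 1 marker gene are not reported here.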

Additional observations from a re-analysis of the deposited data

How the results depend on the processing

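Of 250 values of members under alternatives without a minimum fold, 226 kept their side of the threshold, 24 lost the call and 0 gained one, and no called value turned direction. After knock-down the fit used in the report called 5484 genes (2625 higher, 2859 lower) and 8 members (1 higher, 7 lower). A single fit of all 9 libraries gave 2447 genes (1129 higher, 1318 lower) and 4 members (0 higher, 4 lower), CASP8AP2, SLBP, CPSF2 and CPSF3, and 15 in place of 43 lower histone genes; the cause was not tested. A minimum log2 fold change of 1 left 681 genes (301 higher, 380 lower) and 0 members (0 higher, 0 lower) after knock-down, and 4099 genes (1846 higher, 2253 lower) and 1 member (0 higher, 1 lower), LSM11, in the RIP, by its construction. With no filter on low counts 0 members were higher (LSM10, adjusted p 0.0528). Leaving out 1 library called 5 to 7 members after knock-down, with 0 to 0 higher and 5 to 7 lower. The lowest counts came without shCONTROL replicate 1 or 3.

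The libraries showed no clear pairing by replicate number, which does not exclude a pairing. Not every library correlated best with its own number, and deviations of same-numbered libraries correlated at 0.00411 to 0.0564 after knock-down and at -0.0212 to 0.00974 in the RIP. With the replicate number as a block, 4809 genes and 6 members (0 higher, 6 lower) were called after knock-down, and 6504 genes and 7 members in the RIP. LSM10 (adjusted p 0.0634) and CSTF2 (0.0684) lost their calls after knock-down, CASP8AP2 (0.0540) and ZNF473 (0.0905) in the RIP. Of the paralogues, ERI3 (0.0698) and INTS11 (0.0902) lost theirs after knock-down. Total counts in place of TMM moved the median of all genes in the RIP from -0.05 to -0.17 and gave the same member calls there. After knock-down it moved that median from 0.02 to 0.07 and the share of calls that were higher from 47.9% to 56.6%, and 6 of the 8 members were called, without SYMPK and CSTF2. All members lay above the floor of 3 counts, which equals 0.0788 to 0.118 scaled CPM. This concerns detection and not precision. LSM11, with the lowest counts, had the largest SE of the members in the RIP, 0.24. Whether depth limited the calls was not tested.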
